A study of Mus musculus with 12 samples.

Results

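The heat shock genes of mouse follicular B cells are described here through 10 genes that encode cytosolic and mitochondrial chaperones: *Hspa1a*, *Hspa1b*, *Hspa8*, *Hsph1*, *Dnajb1*, *Dnaja1*, *Hsp90aa1*, *Hsp90ab1*, *Hspd1* and *Hspe1*. They were taken by symbol from tables of read counts in which 12837 genes were measured both before and after culture. All 10 were measured in all 12 libraries and passed the filter on low counts in every comparison. The cells were splenic follicular B cells, labelled CD21/35- CD23+, from male mice that were either WT (Gpr174+/Y) or KO (Gpr174-/Y). GPR174 is a Gαs-coupled receptor for lysophosphatidylserine whose gene lies on the X chromosome, and in the KO its single coding exon had been exchanged for an in-frame tdTomato reporter, a germline change carried by every cell of the animal. The sorted cells were frozen at once (0 h), or cultured for 4 h in complete RPMI with serum and no added stimulus and then frozen. Each genotype and time, such as WT 0 h or KO 4 h, has 3 libraries numbered 1 to 3. The animals were adult and the targeted allele, made in 129 embryonic stem cells, had been backcrossed to C57BL/6J, while the age of single animals is not given in the labels.

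Heat shock proteins bind unfolded or partly folded proteins and help them to reach or regain their fold. The Hsp70 proteins (*Hspa1a*, *Hspa1b*, *Hspa8*) work in cycles of ATP hydrolysis that J-domain proteins (*Dnajb1*, *Dnaja1*) stimulate and that nucleotide exchange factors such as Hsp110 (*Hsph1*) complete, Hsp90 (*Hsp90aa1*, *Hsp90ab1*) acts on many kinases and receptors, and Hsp60 with its lid Hsp10 (*Hspd1*, *Hspe1*) folds proteins inside mitochondria. Some of these genes are transcribed in nearly all cells, whereas others are low until stress activates heat shock factor 1, which binds repeats of the bases GAA and their complement TTC in their promoters.

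The promoter sequences show how closely related *Hspa1a* and *Hspa1b* are and which members carry the letters of a heat shock element. Both are single-exon genes on the minus strand of chromosome 17 in GRCm38, *Hspa1a* at chr17:34969190-34972156 and *Hspa1b* at chr17:34956436-34959238 (GENCODE M21 annotation). The 250 bases before each start, from RefSeq promoters on GRCm38.p6, are shown with the GAA and TTC units of a GAANNTTC match in capitals. They lie at chr17:34972157-34972406 for *Hspa1a* and chr17:34959239-34959488 for *Hspa1b*.
Hspa1a: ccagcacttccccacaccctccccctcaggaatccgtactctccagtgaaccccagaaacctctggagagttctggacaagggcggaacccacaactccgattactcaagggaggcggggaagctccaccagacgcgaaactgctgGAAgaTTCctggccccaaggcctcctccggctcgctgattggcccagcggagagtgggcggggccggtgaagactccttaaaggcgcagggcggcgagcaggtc
Hspa1b: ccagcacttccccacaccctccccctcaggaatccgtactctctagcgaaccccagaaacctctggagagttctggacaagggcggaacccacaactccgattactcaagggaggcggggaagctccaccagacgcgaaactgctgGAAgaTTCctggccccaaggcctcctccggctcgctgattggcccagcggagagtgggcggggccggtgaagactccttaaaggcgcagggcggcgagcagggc
These windows were identical at 247 of 250 aligned bases (98.8%), and both held the match from 104 to 97 bases before the start. The longest open reading frames of these genes were identical at 1919 of 1929 aligned bases (99.5%), whereas the sequence after it was identical at 51.4%. A 50-base read from most of the coding part therefore fits both genes, and 66.3% of the 50-base windows of the *Hspa1a* transcript and 62.3% of those of *Hspa1b* also occur in transcripts of other genes.

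A run of 4 alternating units was found at *Hspd1* and *Hspe1*. These genes lie head to head on chromosome 1, *Hspd1* at chr1:55077835-55088243 on the minus strand and *Hspe1* at chr1:55088132-55091307 on the plus strand, and the stretch between their RefSeq starts serves as the promoter window of both. The same 26 bases, chr1:55088055-55088080, hold the site of both, inside the bounds of the GENCODE *Hspd1* gene, and are printed on each gene's own strand. The sites of *Hsph1*, read from the first of its RefSeq starts, and of *Dnaja1* follow for comparison, with the GAA and TTC units in capitals in each.
Hspd1: ggccTTCcgGAAggTTCtaGAAcgga
Hspe1: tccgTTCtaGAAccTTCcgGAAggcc
Hsph1, upstream site: atctTTCtcGAAggct
Hsph1, site after the start: cagaTTCtgGAAagTTCt
Dnaja1: tctaGAAaaTTCtacg
The shared site spans 144 to 127 bases before the start of *Hspd1* and 89 to 72 bases before that of *Hspe1*. The *Hsph1* sites are at chr5:149636358-149636373, 33 to 26 bases before the start, and at chr5:149636287-149636304, 36 to 48 bases after it, and the *Dnaja1* site is at chr4:40722340-40722355, 124 to 117 bases before the start. Windows of 300 bases (250 before and 50 after the start) were searched on both strands for 7 of the 10 members and 27025 genes in all. GAANNTTC was found in 6 of the 7 members (*Hspa1a*, *Hspa1b*, *Hsph1*, *Dnaja1*, *Hspd1* and *Hspe1*) and in 9.04% of all genes, and TTCNNGAA in 3 members and 9.6% of all genes. The run of 3 units, in which GAANNTTC is followed after any pair of bases by another GAA, or TTCNNGAA by another TTC, and which contains both shorter motifs, was found in *Hsph1*, *Hspd1* and *Hspe1* and in 0.662% of all genes. The run of 4 units, which adds a further unit in the same alternation, was found in 8 genes, 0.0296% of all, of which *Hspd1* and *Hspe1* are a pair that shares 1 site. The *Dnajb1* window held none of these letters. Only exact units at this spacing inside the window were searched, so altered units or sites farther away were not looked for. A match describes the sequence, not binding. Windows for *Hspa8*, *Hsp90aa1* and *Hsp90ab1* were not used here.

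The libraries held 6098941 to 11618787 counts. *Gpr174* reads were at 149.5 to 169.1 CPM (counts scaled to a common library size) in the 6 WT libraries and at 73.43 to 118.3 in the 6 KO libraries, so the levels did not overlap, although reads were still counted on the gene in the KO. B cell markers (7 of 8 listed genes were in both tables) summed to 5746 to 8793 CPM per library, T cell markers (6 of 7) to 2.766 to 11.16 CPM, and macrophage markers (5 of 8) to 16.3 to 56.32 CPM. No marker in both tables was at 0 in any library. Replicate libraries of a group differed by more than sampling noise (chi-square per degree of freedom of 2 to 9.88), so all 12 were kept. Per the study's description of this experiment each genotype was represented by 3 mice, but the sources used here do not tie the library numbers to mice or across times. The same mice may therefore have given both times, and the tests without a replicate block ignore any such pairing.

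Members differed widely in level before any comparison between groups. Per kilobase of merged exons, *Hsp90ab1*, the constitutive cytosolic Hsp90, had the highest level in every group, with a mean of 463 CPM per kb in WT 0 h and 334 in WT 4 h. At 0 h in WT it was followed by *Dnajb1* (88.3), *Hspa8* (51.6), *Hspe1* (36.8), *Hspd1* (35.5), *Hsp90aa1* (35.3), *Hsph1* (21.7) and *Dnaja1* (18.8), and each neighbouring pair from *Dnajb1* down to *Dnaja1* had ranges that overlapped over the 3 libraries. The inducible Hsp70 genes were lowest, at 1.44 CPM per kb for *Hspa1b* and 1.25 for *Hspa1a*, and their ranges overlapped each other and no other member's. At 4 h in WT, *Hspa1a* had moved up to eighth place at 9.89 CPM per kb, where its range overlapped that of *Dnaja1* at 7.92, and *Hspa1b* was last at 3.29. In KO 4 h the order was close to this, with *Hspe1* (33 CPM per kb), *Dnajb1* (31) and *Hspd1* (30.3) overlapping neighbours and *Dnaja1* (8.42) overlapping *Hspa1a* (7.67). The merged exons of some members were longer than the transcript used for the 50-base windows, so their places depend on the length chosen. They came to 8629 against 3376 bases for *Dnaja1* and 7266 against 3240 for *Hsph1*. In CPM not divided by length, *Dnaja1* lay above *Hspa1a* at 4 h, at 59.87 to 74.25 against 19.08 to 43.25 in WT. In KO the ranges were 70.64 to 75.34 against 18.44 to 25.46. Reads of *Hspa8* and *Hsp90aa1* are hard to place, since 74.8% and 65.6% of their 50-base windows occur in the transcripts of other genes.

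**Figure D1:**
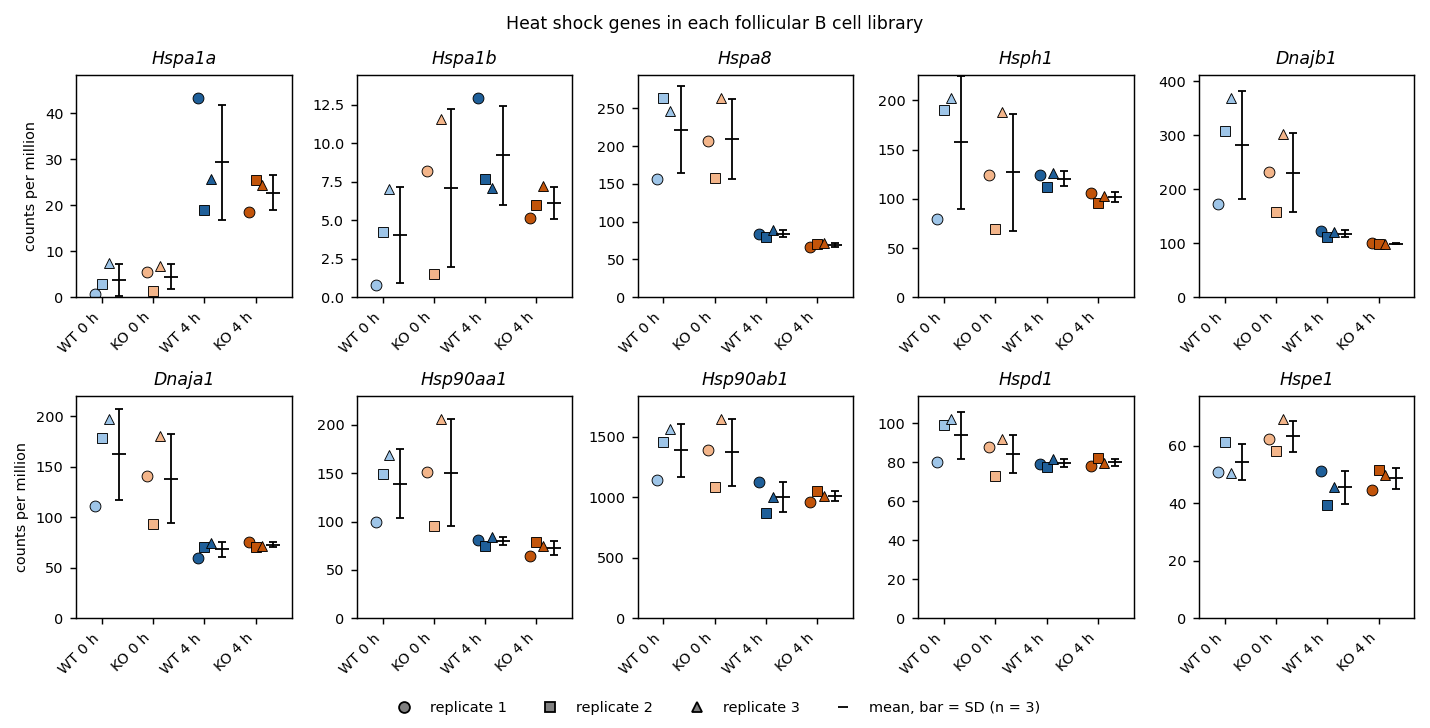
Level in CPM (y axis, from 0, own scale in each panel) of the 10 heat shock genes in the 4 groups (x axis). Symbols mark single libraries by replicate number and the bar gives mean ± SD (n = 3); *Hspa1a* was at 0.79 to 7.5 CPM at 0 h and 18.4 to 43.2 at 4 h, while *Hspa8* was at 157 to 263 and 66.5 to 88.7.

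To ask how the heat shock genes changed in culture, 4 h was compared with 0 h within each genotype. *Hspa1a*, an inducible cytosolic Hsp70, rose 7.46-fold in WT and 4.96-fold in KO, while the constitutive Hsp70 gene *Hspa8*, both J-protein genes and both Hsp90 genes fell in both genotypes, by up to 3.01-fold. *Hspa1b*, the near-identical copy of *Hspa1a*, and *Hsph1*, which encodes Hsp110, passed the test in neither genotype with all libraries and no replicate block, though each was called in WT under an alternative given with its values. In total 1 of the 10 members rose and 6 fell in WT, where 33.1% of the 11572 genes tested were called (15.1% up and 18% down), and again 1 rose and 6 fell in KO, where 23.3% were called (10.3% up and 13% down). The median log2 fold change of the members was -0.43 in WT and -0.41 in KO, beside 0.0048 and 0.0016 over all genes tested. RNA came from whole sorted populations, so fewer cells with a transcript and less of it per cell cannot be told apart.

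*Hspa1a* was at 0.79, 2.8 and 7.5 CPM in the WT 0 h libraries and at 5.4, 1.3 and 6.7 CPM in the KO 0 h libraries. After culture it was at 43.2, 19.1 and 25.7 CPM in WT and at 18.4, 25.5 and 24.3 CPM in KO. Every cultured library lay above every uncultured one. The log2 fold change was 2.90 ± 0.42 (SE, n = 3 and 3) in WT (edgeR quasi-likelihood test, adjusted p = 1.25e-05) and 2.31 ± 0.43 in KO (edgeR, adjusted p = 0.00042). Without WT 0 h replicate 3 the estimate in WT was 4.01 ± 0.46, and over the other WT libraries left out in turn it ran from 2.45 to 3.12, called each time. The lowest library rested on 7 reads. *Hspa1a* exons overlap the gene *Gm20481* on the other strand, and the strand setting of the counting is not given in the sources used here.

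*Hspa1b* was at 0.79, 4.3 and 7.1 CPM in WT 0 h and at 8.2, 1.5 and 11.6 CPM in KO 0 h. After 4 h it was at 12.9, 7.7 and 7.1 CPM in WT and at 5.1, 6.0 and 7.2 CPM in KO. In WT the lowest cultured library lay just above the highest uncultured one, and in KO the groups overlapped. The log2 fold changes were 1.13 ± 0.50 (edgeR, adjusted p = 0.087) and -0.23 ± 0.50 (edgeR, adjusted p = 0.793). In WT it was called without WT 0 h replicate 3 (1.84 ± 0.57; edgeR, adjusted p = 0.0199) and with the replicate number within genotype as a block (1.19 ± 0.45; edgeR, adjusted p = 0.0474), and without WT 0 h replicate 1 it was at 0.66 ± 0.43.

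The split of reads between these copies changed with culture in both genotypes. *Hspa1a* took 36.8% to 51.5% of the summed *Hspa1a* and *Hspa1b* counts in the 6 libraries at 0 h and 71.3% to 81% in the 6 at 4 h. Before culture the mean share was 47.1% ± 6.42 (SD, n = 3) in WT and 41.3% ± 5.46 in KO, and after it 75.6% ± 3.8 and 78.8% ± 1.97. The difference between times was 33 percentage points (two-sided exact permutation test over 924 relabellings of the 12 libraries, p = 0.00216, the smallest it can give), and with times exchanged only within a genotype the exact permutation p was 0.005 over 400 relabellings, also the smallest possible. Neither test keeps a pairing of libraries by mouse across times, which would allow fewer relabellings. The WT 0 h replicate 1 share rested on 14 reads in all (50%, exact 95% binomial interval 23% to 77%, counting error only) and that of KO 0 h replicate 2 on 19. How the counting treated reads that fit both copies is not given in the sources used here, so the share describes counted reads, and its relation to the amounts of the transcripts was not tested.

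**Figure D2:**
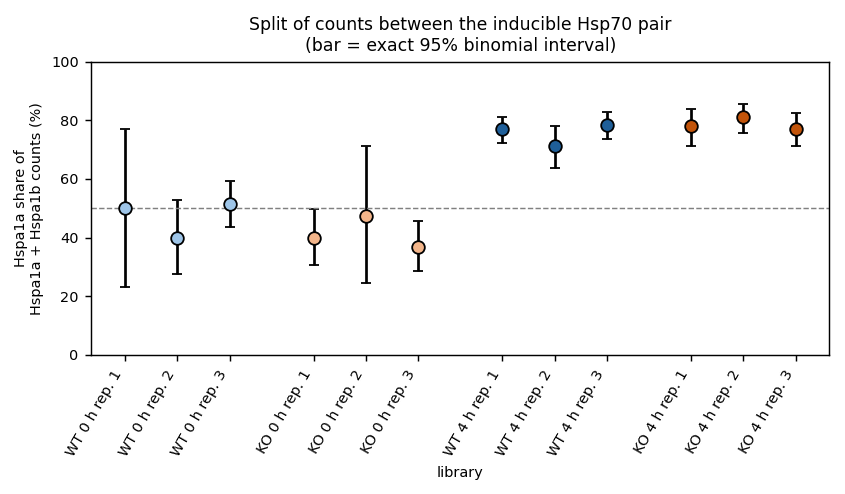
Share of *Hspa1a* in the summed *Hspa1a* and *Hspa1b* counts (y axis, percent, 0 to 100) in each of the 12 libraries (x axis), with exact 95% binomial intervals as bars and a dashed line at 50%. The 6 libraries at 4 h sit between 71.3% and 81%, above all 6 at 0 h.

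*Hspa8* encodes Hsc70, the Hsp70 of unstressed cells. It was at 157, 263 and 246 CPM in WT 0 h and at 207, 158 and 263 CPM in KO 0 h. After culture it was at 83.4, 80.2 and 88.7 CPM in WT and at 66.5, 70.6 and 71.5 CPM in KO. All cultured libraries lay below all uncultured ones, and the log2 fold change was -1.40 ± 0.16 in WT (edgeR, adjusted p = 3.89e-07) and -1.59 ± 0.16 in KO (edgeR, adjusted p = 1.62e-07). Its exons contain the small nucleolar RNA genes *Snord14c*, *Snord14d* and *Snord14e* on the same strand, so reads there are uncertain.

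*Hsph1*, the exchange factor, was the member whose 0 h libraries differed most apart from the low *Hspa1a* and *Hspa1b*. It was at 80, 190 and 202 CPM in WT 0 h and at 124, 69.3 and 188 CPM in KO 0 h, while the 4 h libraries were at 124, 112 and 126 CPM in WT and at 106, 95.7 and 103 CPM in KO. The 0 h values lay on both sides of the 4 h values. The log2 fold change was -0.39 ± 0.26 in WT (edgeR, adjusted p = 0.269) and -0.33 ± 0.27 in KO (edgeR, adjusted p = 0.416). Without WT 0 h replicate 1 it was called in WT at -0.70 ± 0.20 (edgeR, adjusted p = 0.0115), and without KO 0 h replicate 3 the estimate in KO was 0.06 ± 0.26. None of its 50-base windows occurs in another transcript.

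Among the J-protein genes, *Dnajb1*, the classical inducible Hsp40, was at 173, 307 and 368 CPM in WT 0 h and at 232, 158 and 303 CPM in KO 0 h. At 4 h it was at 122, 111 and 121 CPM in WT and at 99.6, 99.3 and 98.8 CPM in KO. The times did not overlap, and it fell by 1.26 ± 0.20 on the log2 scale in WT (edgeR, adjusted p = 3.57e-05) and by 1.22 ± 0.20 in KO (edgeR, adjusted p = 0.000112). *Dnaja1*, a J protein of the other cytosolic class, was at 111, 178 and 197 CPM in WT 0 h and at 141, 92.9 and 180 CPM in KO 0 h, against 59.9, 70.8 and 74.3 CPM in WT 4 h and 75.3, 70.6 and 71.9 CPM in KO 4 h. It fell by 1.24 ± 0.18 in WT (edgeR, adjusted p = 1.62e-05) and by 0.93 ± 0.18 in KO (edgeR, adjusted p = 0.000713), again with no overlap between times. The exons of *Dnaja1* overlap *Gm6297* and *Smu1* on the other strand and *Mir207*, and 30.6% of its 50-base windows occur in other transcripts.

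Of the Hsp90 genes, *Hsp90aa1* encodes the inducible form and *Hsp90ab1* the constitutive one. *Hsp90aa1* was at 99.3, 149 and 169 CPM in WT 0 h and at 151, 95.3 and 205 CPM in KO 0 h, and after culture at 80.5, 74.9 and 83.9 CPM in WT and at 64.5, 78.9 and 74.8 CPM in KO. All cultured libraries were below all uncultured ones of the same genotype, and the log2 fold change was -0.80 ± 0.19 in WT (edgeR, adjusted p = 0.0024) and -1.05 ± 0.19 in KO (edgeR, adjusted p = 0.000311). *Hsp90ab1* was at 1145, 1454 and 1564 CPM in WT 0 h, at 1389, 1088 and 1643 CPM in KO 0 h, at 1126, 874 and 1001 CPM in WT 4 h and at 963, 1050 and 1014 CPM in KO 4 h. The times did not overlap in either genotype, though the gap was narrow, and the log2 fold change was -0.47 ± 0.12 in WT (edgeR, adjusted p = 0.00322) and -0.45 ± 0.12 in KO (edgeR, adjusted p = 0.00739). The call in KO was lost without KO 0 h replicate 3 (-0.30 ± 0.11; edgeR, adjusted p = 0.0721).

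The mitochondrial chaperonin genes had small estimates, and each was called in a single genotype. *Hspd1*, which encodes Hsp60, was at 80, 99.4 and 102 CPM in WT 0 h and at 87.8, 73 and 92.1 CPM in KO 0 h, against 77.6 to 81.5 CPM in WT 4 h and 78.4 to 82.1 CPM in KO 4 h. It fell by 0.24 ± 0.09 in WT (edgeR, adjusted p = 0.0452), a call that was lost with library totals in place of composition scaling, with only the WT libraries in the fit, or when any WT library other than WT 0 h replicate 1 was left out, and its log2 fold change in KO was -0.08 ± 0.09 (edgeR, adjusted p = 0.599). *Hspe1*, which encodes the Hsp10 lid, was at 50.9, 61.4 and 50.5 CPM in WT 0 h and at 62.3, 58.2 and 69.1 CPM in KO 0 h, and at 39.4 to 51.2 CPM in WT 4 h and 44.5 to 51.5 CPM in KO 4 h. Its log2 fold change was -0.25 ± 0.10 in WT (edgeR, adjusted p = 0.0632), and it fell by 0.38 ± 0.10 in KO (edgeR, adjusted p = 0.0094). That call was lost without KO 0 h replicate 3 (edgeR, adjusted p = 0.0602) or KO 4 h replicate 1 (edgeR, adjusted p = 0.0592), and *Hspe1* was called in WT on leaving out replicate 1 (-0.30) or 3 (-0.31) of WT 0 h, or replicate 1 of WT 4 h (-0.34). Across the members, the libraries of the times did not overlap for 7 of 10 genes in WT, where this held for 40.9% of all genes tested, and for 7 of 10 in KO, where it held for 41.9%. With 44.8% of their windows found in other transcripts and their first exons on overlapping opposite strands, reads of *Hspd1* and *Hspe1* are uncertain too.

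**Figure D3:**
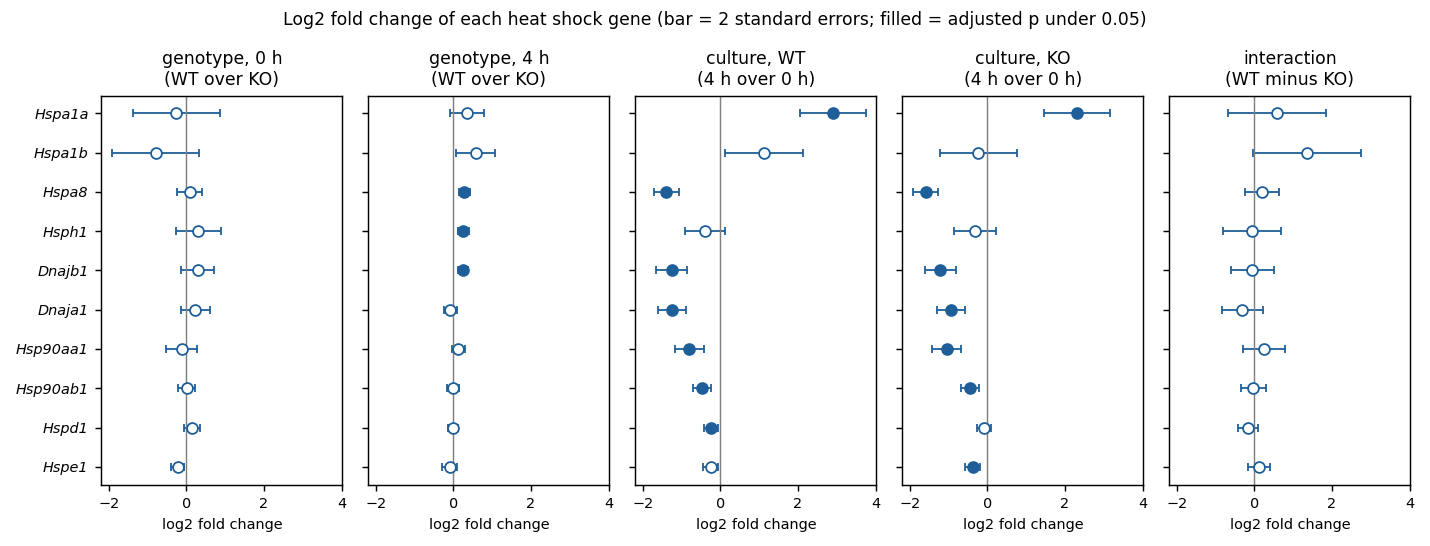
Log2 fold change (x axis) of each heat shock gene (y axis) in the 5 comparisons, with bars of 2 standard errors and filled symbols where the edgeR adjusted p was under 0.05. *Hspa1a* is the one member called upward in culture (2.90 in WT and 2.31 in KO), and no member is called in the genotype comparison at 0 h or in the interaction.

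Several measures moved with time as well. Macrophage markers summed to 43.5 to 56.32 CPM in the 0 h libraries and to 16.3 to 31.32 CPM at 4 h, marginal zone B cell markers (5 of 5 genes) to 1063 to 1289 CPM and then to 240.3 to 426.9 CPM, B cell markers to 8032 to 8793 CPM and then to 5746 to 7307 CPM, and early-response genes (11 of 12) to 1102 to 1360 CPM and then to 862.5 to 1140 CPM. Their part in the culture differences was not tested. The 0 h and 4 h libraries were also deposited as separate tables of raw counts, and a batch of preparation and the time in culture cannot be told apart.

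The members varied far more among uncultured than among cultured libraries. The SD of log2 CPM over the 3 libraries of a group, pooled over genotypes, was 0.73 for *Hsph1* at 0 h against 0.0863 at 4 h, 0.53 against 0.0548 for *Dnajb1*, 0.39 against 0.0648 for *Hspa8* and 1.47 against 0.37 for *Hspa1b*, while the median over all genes was 0.14 at either time. *Hspe1* was the exception, at 0.14 and 0.15. The same libraries were low for nearly all members: WT 0 h replicate 1 and KO 0 h replicate 2 were the lowest pair of the 6 uncultured libraries for 9 of the 10 genes, all but *Hspe1*, and this held for 8.12% of all genes tested. *Hsph1* was at 80 and 69.3 CPM in these libraries and at 124 to 202 CPM in the other 4. The highest uncultured level was 14.7 times the lowest for *Hspa1b*, 9.52 times for *Hspa1a* and 1.51 times for *Hsp90ab1*.

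**Figure D4:**
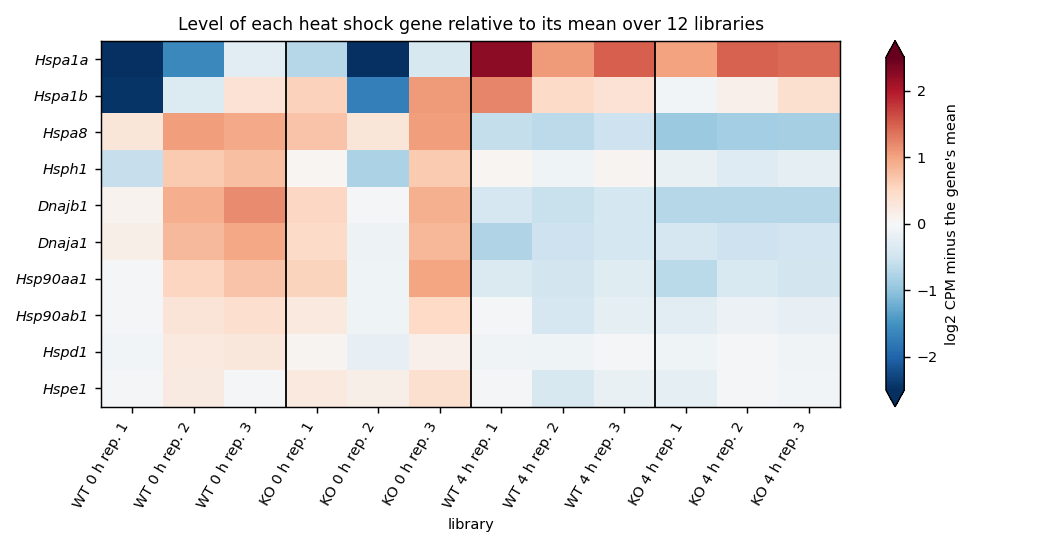
Level of each heat shock gene (rows) in each of the 12 libraries (columns), as log2 CPM minus the gene's mean over all libraries, with colours capped where the scale ends and black lines between groups. WT 0 h replicate 1 and KO 0 h replicate 2 are the lowest uncultured libraries for 9 of the 10 genes, and the *Hspa1a* row goes from low to high with culture.

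Several other measures, though not all, set the same libraries apart from those of their own group. WT 0 h replicate 1 and KO 0 h replicate 2 had the highest summed early-response level of their group (1360 CPM against 1178 and 1166 in WT, and 1207 against 1177 and 1102 in KO), the highest share of *Rn45s*, a ribosomal RNA precursor (11.3% and 10.3%), and the lowest summed proliferation level (272.5 and 502 CPM). The summed granulocyte, NK cell and erythroid markers (6 of 8 genes) were highest in them too, at 109.8 CPM against 80.37 and 77.62 in WT and at 227.2 CPM against 148 and 75.95 in KO, as were macrophage markers (56.32 and 52.44 CPM) and B cell markers (8793 and 8374 CPM), while T cell markers were lowest (3.041 and 5.037 CPM). Marginal zone B cell markers did not follow this, being lowest in WT 0 h replicate 1 (1214 CPM) and highest in KO 0 h replicate 2 (1246 CPM). Single early-response genes did not all follow their sum, with *Fos* at 8.74 CPM in KO 0 h replicate 2 and 10.1 in KO 0 h replicate 1. With 3 libraries a group, being highest or lowest is common. The part of these measures in the spread was not tested. Without both libraries, an alternative added after seeing the data, *Hsph1* fell by 0.70 ± 0.11 on the log2 scale in WT and by 0.62 ± 0.12 in KO. The members called in culture then numbered 9 in WT (1 up, 8 down) and 8 in KO, with *Hspa1a* still up by 2.45 ± 0.32 and 1.90 ± 0.34. Of the 11681 genes tested in this setting, 3659 were called in WT and 2406 in KO. Both libraries were picked for being low in these same genes at 0 h. Larger falls, smaller rises, less spread and more calls follow from that choice, so these values are a description and not a test.

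Before culture, WT and KO follicular B cells showed no called difference in any heat shock gene. The edgeR test called 0 of the 10 members, DESeq2 also called 0, and 1 member, *Hspe1*, had an unadjusted p under 0.05. Over the 11345 genes tested, 0.987% were called and 12.7% had an unadjusted p under 0.05. The log2 fold change of WT over KO for *Hspe1* was -0.23 ± 0.09 (edgeR, adjusted p = 0.313), with 54.3 ± 6.2 CPM (SD, n = 3) in WT and 63.2 ± 5.5 in KO. For *Dnajb1* it was 0.29 ± 0.21, with an interval of 2 standard errors from -0.14 to 0.71, and for *Hspa1b* -0.79 ± 0.56, from -1.91 to 0.32, so that differences of that size were not detectable here. The intervals were narrower for *Hsp90ab1* (-0.22 to 0.24) and *Hspd1* (-0.05 to 0.34). No member had non-overlapping WT and KO libraries at 0 h, where 18.1% of all genes did. The median of the members was 0.04, beside 0.0003 over all genes tested.

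After 4 h of culture, *Hspa8*, *Dnajb1* and *Hsph1* were modestly higher in WT than in KO, each by about the same amount. The 3 genes make up the members called, all with WT higher, where 10.9% of the 11123 genes tested were called and 5.22% were called with WT higher. *Hspa8* was at 84.1 ± 4.3 CPM (SD, n = 3) in WT and 69.5 ± 2.7 in KO, a log2 fold change of 0.28 ± 0.07 (edgeR, adjusted p = 0.019). *Dnajb1* was at 117.9 ± 6.2 and 99.2 ± 0.4 CPM, a log2 fold change of 0.25 ± 0.06 (edgeR, adjusted p = 0.0192). *Hsph1* was at 120.5 ± 7.9 and 101.6 ± 5.3 CPM, also 0.25, with an SE of 0.07 (edgeR, adjusted p = 0.0298). For these genes alone among the members the WT and KO libraries did not overlap, as held for 27.9% of all genes tested (14.5% with WT higher). The calls were not stable: none remained with all 12 libraries in one fit (edgeR, adjusted p = 0.356, 0.542 and 0.654 for *Hspa8*, *Dnajb1* and *Hsph1*). The estimates there kept their size, at 0.28 ± 0.17, 0.25 ± 0.21 and 0.25 ± 0.27, with a spread shared with the 0 h libraries. None remained without WT replicate 3, KO replicate 1 or KO replicate 2, and that of *Hspa8* alone remained without WT replicate 1 or KO replicate 3. With a library left out, the estimates ran from 0.24 to 0.31 for *Hspa8*, 0.22 to 0.29 for *Dnajb1* and 0.21 to 0.3 for *Hsph1*.

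The other 7 members were not called at 4 h. *Hspa1b* had the largest estimate, 0.57 ± 0.25 (edgeR, adjusted p = 0.173), with 1 WT library at 12.9 CPM and the other two at 7.7 and 7.1, against 5.1 to 7.2 CPM in KO. *Hspa1a* was at 0.35 ± 0.22, and its estimate was -0.01 at the lowest when a library was left out. *Hsp90aa1* (0.13), *Hsp90ab1* (-0.01), *Dnaja1* (-0.08), *Hspd1* (-0.01) and *Hspe1* (-0.10) had standard errors of 0.07 to 0.10. The median of the members was 0.19 beside 0.0048 over all genes tested. At this time *Rn45s* took 7.78% to 11.2% of the WT libraries and 6.65% to 7.59% of the KO libraries, early-response genes summed to 931.2 to 1140 CPM and 862.5 to 896.5 CPM, plasma cell markers (4 of 4 genes) to 469.9 to 520.6 CPM and 397.3 to 430.8 CPM, marginal zone B cell markers to 240.3 to 285.4 CPM and 377.7 to 426.9 CPM, and B cell markers to 5746 to 6016 CPM and 7116 to 7307 CPM, with no overlap in any of these. Not every early-response gene followed the sum, with *Egr1* at 44.6 to 62.9 CPM in WT and 63.8 to 76.9 CPM in KO. Of 10 such genes tested at 4 h, 6 were called higher and 1 lower in WT, where 10.9% of all genes were called. The part of these summed measures and of *Rn45s* in the genotype differences was not tested.

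Whether culture changed the heat shock genes differently in WT and KO was tested as an interaction. The edgeR test called 0 of the 10 members, with 0 at an unadjusted p under 0.05 and 0 called by DESeq2. Over the 11572 genes tested, 6.39% were called and 17.4% had an unadjusted p under 0.05. The largest estimate was that of *Hspa1b*, 1.36 ± 0.70 on the log2 scale (edgeR, adjusted p = 0.333), with an interval of 2 standard errors from -0.04 to 2.76. For *Hspa8* the difference was 0.19 ± 0.22, with an interval from -0.25 to 0.64, and for *Hspa1a* 0.59 ± 0.63, from -0.67 to 1.85. These intervals leave room for differences as large as the genotype differences seen at 4 h. They rest on an estimate of spread per gene shared by both times, although most members varied more at 0 h than at 4 h.

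Beyond the members, 97 genes of the chaperone network were followed in 9 lists by role. Of the 89 tested in culture, 11 rose and 9 fell in WT and 5 rose and 6 fell in KO, which is 20 and 11 genes and below the share of all genes called for both genotypes (33.1% and 23.3%). The medians of the network were 0.06 in WT and 0.02 in KO. The Hsp90 relatives and partners held 1 increase and 3 decreases in WT of 15 tested, where 18% of all genes were called down. *Unc45a*, an Hsp90 cochaperone that falls outside the naming rule and was named after its values were seen, rose by 0.46 ± 0.09 (edgeR, adjusted p = 0.000284), whereas *Cacybp*, which binds the ubiquitin ligase factor Siah, fell by 0.79 ± 0.15 on the log2 scale, *Chordc1*, an Hsp90 cochaperone, by 0.53 ± 0.08, and *Stip1*, which links Hsp70 to Hsp90, by 0.46 ± 0.16. In KO *Cacybp* fell by 0.48 ± 0.15. *Stip1* shared the wide 0 h spread of the members, at 98.8 ± 30.7 CPM (SD, n = 3) in WT 0 h and 72.2 ± 1.3 CPM in WT 4 h.

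The Hsp70 relatives held 2 increases and 2 decreases in WT of 10 tested, and 3 decreases in KO. *Hspa5*, the Hsp70 of the endoplasmic reticulum, went from 567 ± 8 CPM to 425 ± 23 CPM in WT and fell by 0.42 ± 0.07 on the log2 scale, and by 0.51 ± 0.07 in KO. *Hspa12a*, a distant relative, was low throughout and went from 6.9 ± 2.4 CPM to 0.32 ± 0.32 CPM in WT, where 1 library was at 0, and fell by 2.59 ± 0.43 in KO. *Hspa13* rose by 0.53 ± 0.15 in WT. The J-protein relatives held 1 increase and 3 decreases of 21 in WT, among them *Dnajb4*, which is close to *Dnajb1* and fell by 0.84 ± 0.15, *Dnajc9*, a histone chaperone that fell by 0.47 ± 0.07, and *Dnajc3*, an endoplasmic reticulum cochaperone that fell by 0.26 ± 0.06, and by 0.37 ± 0.06 in KO.

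The remaining lists held at most 2 called genes each in either genotype. Of the 4 tested heat shock factor genes, *Hsf5* rose in WT at a very low level (0.34 to 1.34 CPM), and *Hsbp1*, whose product binds heat shock factor 1, fell by 0.26 ± 0.07. Of 12 Hsp70 cochaperones, *Bag4* rose by 0.30 ± 0.11 in WT and *Bag1* by 0.30 ± 0.10 in KO. The small heat shock gene *Hspb6*, 1 of 2 tested in its list, rose by 0.72 ± 0.17 in WT and 0.86 ± 0.18 in KO, from 9.3 and 7.1 CPM. Of 13 subunits of the TRiC chaperonin and prefoldin, *Cct3* (0.37 ± 0.09) and *Vbp1* (0.32 ± 0.09) rose in WT, and *Vbp1* (0.38 ± 0.10) in KO. *Afg3l2*, a mitochondrial protease subunit, rose by 0.25 ± 0.08 in WT, and *Sqstm1*, an autophagy receptor, rose by 0.41 ± 0.08 in WT and 0.29 ± 0.08 in KO. With each library of the genotype left out in turn, giving 6 fits, the call of *Stip1* in WT held in 1 (without WT 0 h replicate 1), *Bag4* in 2, *Afg3l2* in 3, *Vbp1* in 4, and *Hspa13* and *Hsbp1* in 5, and in KO that of *Bag1* held in 1, *Cacybp* in 3 and *Sqstm1* in 5. The other network calls named for culture held in all 6.

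Between genotypes, 1 of 87 network genes was called at 0 h, where 0.987% of all genes were called, and 5 of 87 at 4 h, where 10.9% were. At 0 h it was *Dnajc9*, higher in WT by 0.33 ± 0.06 (edgeR, adjusted p = 0.0127), a call that was lost on leaving out replicate 2 or 3 of WT 0 h, or replicate 1 of KO 0 h. At 4 h it was lower in WT by 0.29 ± 0.08 (edgeR, adjusted p = 0.0266), a call that held only without WT 4 h replicate 3 when libraries were left out in turn. The other called genes at 4 h, named after their values were seen, were *Unc45a* (0.49 ± 0.08), *Dnajb2* (0.53 ± 0.11), *Pfdn2* (0.32 ± 0.09) and *Hsp90b1* (0.28 ± 0.06), all higher in WT. Those of *Unc45a*, *Dnajb2* and *Hsp90b1* held whichever library was left out, and that of *Pfdn2*, a prefoldin subunit, was lost without WT 4 h replicate 1 or any KO 4 h library.

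The genes whose levels over the 12 libraries were most like the mean profile of *Hspa1a*, *Hspa1b*, *Hsph1* and *Dnajb1* were *Lasp1* (Pearson r = 0.905), *Tesk1* (0.904), *Fkbp4* (0.89), *St13* (0.881) and *Prdm15* (0.872). The members correlated with this mean at 0.904 (*Hsph1*), 0.882 (*Hspa1b*), 0.51 (*Hspa1a*) and 0.416 (*Dnajb1*), so the mean is not one shared pattern: *Hspa1a* rises with culture and *Dnajb1* falls. The profile is closest to that of *Hsph1* and *Hspa1b*, with low values in the 2 low uncultured libraries, and *Fkbp4*, an Hsp90 cochaperone, and *St13*, an Hsp70 cochaperone, are the chaperone genes on the list. For the mean of *Hspd1* and *Hspe1* the nearest were *Nup85* (0.95), *Cacybp* (0.938), *Noa1* (0.935), *Pdrg1* (0.922) and *Rpl9* (0.92). These values describe 12 libraries that share groups and depth, and carry no p.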

How the data were processed

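Follicular B cells were sorted, and libraries were made with the NuGEN Ovation RNA-seq System V2 and a KAPA Hyper kit, with reads of 50 bases on a HiSeq2500. The authors aligned reads to mm10 with STAR and counted them per gene with HTSeq, per the labels and the study's methods, and deposited raw counts per gene with no normalization. Tool versions, the annotation and the strand setting are not given in the sources used here. Each deposited table holds genes with at least 10 counts over its 6 libraries, and 0 columns were unmapped. Totals ran from 6098941 to 11618787 counts, and errors cover counting and the spread between libraries.

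Counts were tested with edgeR 4.0.16 in R 4.3.3 (TMM scaling, filterByExpr, quasi-likelihood test, Benjamini-Hochberg adjustment over all genes, adjusted p under 0.05). Genotype (WT over KO) was fitted on the 6 libraries of each time, and culture (4 h over 0 h) and the interaction (WT culture change minus KO culture change) on all 12 libraries over 12837 genes, of which 11572 passed the filter. CPM used the TMM scaling of the 12-library fit. The standard error of a log2 fold change is its size divided by the square root of F. In the 12-library fit each gene had a single estimate of spread for both times. Its errors for culture and the interaction therefore do not follow a difference in spread between times. The scripts were tested on simulated data. DESeq2 1.42.0, other scalings and filters, replicate blocks and leaving out libraries were alternatives. Gene positions, exon lengths and 50-base windows came from GENCODE M21 on GRCm38, the build named mm10, and promoters from RefSeq on GRCm38.p6, of which 7 of 10 members matched. Alignments used Biopython 1.88.

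The members and gene lists were chosen with earlier results of these data known. Network genes were named as the called genes of each list, up to 3, with the largest change in culture or the interaction, and like genes as the 5 with the highest Pearson r.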

Additional observations from a re-analysis of the deposited data

Results flagged for a closer look

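Of 89 chaperone network genes, 2 changed differently with culture in WT and KO by the interaction test, which called 6.39% of all genes tested. *Dnajc9*, a J protein that acts as a histone chaperone, had an interaction of -0.63 ± 0.11 on the log2 scale (edgeR, adjusted p = 0.000407), and it was called in all 12 fits that left out 1 library, at -0.74 to -0.57. It was at 177.4, 192.2 and 188.2 CPM in WT 0 h and at 141.4, 142.8 and 156.5 CPM in KO 0 h, and then at 126.7, 122 and 152.8 CPM in WT 4 h and at 161.5, 172.1 and 158.9 CPM in KO 4 h. WT libraries lay above KO libraries at 0 h and below them at 4 h. The summed proliferation genes were at 272.5 to 372.8 CPM in WT and 502 to 679.9 CPM in KO before culture, and at 268.3 to 311.1 CPM and 293.6 to 439.1 CPM after it, and their part was not tested.

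*Hsp90b1*, the Hsp90 of the endoplasmic reticulum, had an interaction of 0.31 ± 0.08 (edgeR, adjusted p = 0.026). With 1 library left out it ran from 0.24 to 0.36 and was called in 5 of 12 fits, being lost without WT 0 h replicate 2 or 3, KO 0 h replicate 1 or 3, WT 4 h replicate 3, or KO 4 h replicate 1 or 2. It was at 780.5 to 816.9 CPM in WT and 745 to 881.2 CPM in KO before culture, and at 738.7 to 803.8 CPM and 615.7 to 664.5 CPM after it. It fell by 0.34 ± 0.06 with culture in KO. No member was among the genes called for the interaction.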

How the results depend on the processing

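With 3 libraries a group, the counts of members called when 1 library was left out ran from 6 to 9 for culture in WT, 5 to 7 for culture in KO, 0 to 3 for genotype at 4 h, and 0 to 0 for genotype at 0 h and for the interaction. Counts of chaperone network genes ran from 15 to 23, 8 to 9, 3 to 7, 0 to 3 and 1 to 5 in the same order of comparisons (culture in WT, culture in KO, genotype at 4 h, genotype at 0 h, interaction). All genes called in these fits ran from 3240 to 3661, 1919 to 2219, 776 to 1361, 26 to 161 and 497 to 743 in that order, of 11255 to 11795 tested. With all 12 libraries in one fit, 0 members were called for genotype at 4 h in place of 3, and 1301 of all 11572 genes were. Network genes called for genotype at 0 h numbered 1 in the reported fit and 2 with DESeq2 or with all 12 libraries in one fit, and 3 without both low 0 h libraries (added after seeing the data). Network genes called for culture in KO numbered 11, and 18 with library totals only or with only the 6 KO libraries.

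The replicate numbers may pair the libraries across times, as the study describes 3 mice per genotype, but this was not shown. The correlation of deviations between same-numbered libraries was over 0.1 in 2 of 3 WT pairs of 0 h and 4 h and in 2 of 3 KO pairs. Every WT library correlated best with its own number, and 2 of 3 KO libraries did. With the replicate block, 0 members were called for genotype at 0 h, 3 at 4 h, 7 for culture in either genotype and 0 for the interaction, and 2 network genes for genotype at 0 h. Among all genes this fit called 138 of 11345 for genotype at 0 h and 1062 of 11123 at 4 h. Of 11572 genes it called 3819 for culture in WT, 2708 for culture in KO and 733 for the interaction. With the block within genotype, the fit that would keep such a pairing, 2 members rose and 6 fell in WT culture, and 1 rose and 6 fell in KO culture. *Hspa1b* was the member gained in WT (1.19 ± 0.45; edgeR, adjusted p = 0.0474), and 0 members were called for the interaction. Of all 11572 genes, the fit with the block within genotype called 3980 in WT culture, 2859 in KO culture and 842 for the interaction.

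Uncalled members near 0 changed sign. *Hsp90ab1* at 0 h became -0.02 with library totals and -0.01 without both low libraries, and *Hspd1* in KO culture 0.01 with library totals, a scaling that moved the median of all genes to 0.114 in WT culture. When 1 library was left out, the log2 fold change for genotype at 0 h ran from -1.34 to 0.20 for *Hspa1a*, -0.08 to 0.28 for *Hspa8*, -0.36 to 0.16 for *Hsp90aa1* and -0.13 to 0.15 for *Hsp90ab1*, and at 4 h from -0.01 to 0.57 for *Hspa1a*, -0.11 to 0.07 for *Hsp90ab1* and -0.03 to 0.01 for *Hspd1*. For culture in KO it ran from -0.69 to 0.29 for *Hspa1b* and -0.62 to 0.06 for *Hsph1*, and for the interaction from 0 to 0.36 for *Hspa8*, -0.04 to 0.49 for *Hsp90aa1*, -0.18 to 0.12 for *Hsp90ab1*, -0.45 to 0.23 for *Hsph1* and -0.30 to 0.19 for *Dnajb1*. The cause was not tested. *Hspa8*, *Dnajb1*, *Dnaja1*, *Hsp90aa1* and *Hspa1a* kept their culture calls in both genotypes under each alternative run. At these depths the low *Hspa1a* and *Hspa1b* counts at 0 h limit what can be seen.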
